A study of Mus musculus with 6 samples.

Results

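The contacts described here join the middle V genes of the mouse immunoglobulin heavy chain (Igh) locus to its distal V genes. They were read by chromosome conformation capture carbon copy (5C), in which a forward and a reverse primer anneal across the junction of 2 HindIII restriction fragments that were ligated in fixed chromatin. The members are the forward-reverse primer pairs with a fragment midpoint in chr12:115139357-115709849 (mm9; middle V) and the other midpoint in chr12:115723372-117190694 (distal V). This rule uses position only and no measured value. It takes 1811 of the 12656 Igh pairs (14.3%), of which 1097 reach near distal V (fragments up to position 116439886) and 714 reach far distal V (fragments from position 116539430). The pairs are formed by 51 middle V fragments, 43 near distal V fragments and 28 far distal V fragments, so pairs that share a fragment are not independent measurements. The regions were set by position and no mm9 annotation was used here, so single V genes are not named.

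Each of the 3 cell types had 2 libraries, described by the submitters as biological replicates. Pro-B cells came from bone marrow of Rag2 deficient mice and were expanded in culture with IL7, the interleukin that supports their growth. Mouse embryonic fibroblasts (MEF), a cell type that does not use the locus, were taken directly from culture. Resting B cells were CD43- splenic B cells isolated from spleen with MACS beads and were not cultured. No strain, age or number of pooled animals was given in the sources used here, and 5C carries no expression markers against which the cell types could be checked. Cell type and culture history cannot be told apart in this design.

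As background, an antibody heavy chain gene is assembled by V(D)J recombination. The RAG enzyme first joins a D segment to a J segment and then joins a V segment to that DJ unit, which deletes the DNA between the joined V and D segments. In pro-B cells the V genes, spread over most of the locus, are known to be drawn together (locus contraction), which brings distal V genes closer to the DJ unit. Pro-B cells without Rag2 keep the whole locus on every allele. Resting B cells carry rearranged alleles, so fewer copies of a segment and fewer contacts per copy cannot be told apart in the values below.

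Sequencing gave 20580457 to 24191175 valid read pairs per library. The members held 1.72% to 3.76% of the Igh reads of a library, between 326354 and 782598 reads. Replicates of the member pairs agreed less in pro-B cells than in the other cell types: the log2 counts correlated across near distal pairs with Pearson's r of 0.738 in the pro-B libraries, 0.932 in the MEF libraries and 0.954 in the resting B libraries, and across far distal pairs with 0.676, 0.906 and 0.934 (primer pairs are not independent replicates). Pro-B replicate 2 stood apart, with 279 member pairs at 0 reads against 73 in pro-B replicate 1, 72 and 67 in the MEF libraries and 121 and 164 in the resting B libraries. Among the 220 tested control pairs of a gene desert on chromosome 5, 18 were higher and 13 lower in resting B cells than in pro-B cells, 14.1% in all. That share is larger than the share of Igh pairs called in the same edgeR fit. The p-values were adjusted separately within the desert pairs and within the Igh pairs, so the 2 shares rest on different unadjusted cut-offs.

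Of the 1811 members, 1662 had at least 10 reads in at least 2 libraries and entered the tests, 1014 with near and 648 with far distal V. The remaining 149 were too sparse, and 36 of them had no read in any library. Fragment midpoints lay 15.8 to 1292 kb apart in near distal pairs (median 546 kb) and 837 to 2042 kb apart in far distal pairs (median 1304 kb). The median near distal pair had 94 and 123 reads in the pro-B libraries, 87 and 141 in the MEF libraries and 79 and 61 in the resting B libraries. The median far distal pair had 69 and 94.5 reads in the pro-B libraries, 54 and 97 in the MEF libraries and 41 and 38 in the resting B libraries. Resting B cells thus had the lowest medians in both parts of distal V. HindIII fragment sequences were not used here, so fragments are given by primer name and position.

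Summed over all primer pairs, middle V contacts with distal V were lowest in resting B cells. Counts were expressed as CPM as edgeR defines it, from a library's tested reads between fragments of the same chromosome after rescaling by the TMM factor. With near distal V, the sums were 20383 and 26655 CPM in the pro-B libraries, 23291 and 14276 CPM in the MEF libraries and 10804 and 10994 CPM in the resting B libraries. The pro-B and MEF libraries overlapped, and both resting B libraries were below all 4 others. With far distal V, the sums were 6979 and 6586 CPM in the pro-B libraries, 5810 and 5707 CPM in the MEF libraries and 4435 and 4111 CPM in the resting B libraries. These groups did not overlap, and their order was pro-B, MEF, resting B.

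The near distal sum averaged 23519 ± 4435 CPM in pro-B cells (SD, n = 2), 18784 ± 6375 in MEF and 10899 ± 134 in resting B cells. It was 2.16-fold lower in resting B cells than in pro-B cells (log2 fold -1.11, SE 0.32), with an adjusted p of 0.0275 in edgeR's quasi-likelihood test over the 55 pairs of 10 Igh regions. The far distal sum averaged 6782 ± 277, 5758 ± 73.0 and 4273 ± 229 CPM in the same order. It was 1.59-fold lower in resting B cells than in pro-B cells (log2 fold -0.67, SE 0.22; edgeR adjusted p = 0.0372). The near call was lost without MEF replicate 2 or either resting B library, and the far call without either MEF or either resting B library. The folds kept their direction without single libraries, from -1.30 to -0.91 for near and from -0.72 to -0.60 for far. The far call was also lost with the replicate block (edgeR adjusted p = 0.0659). Of the 55 region pairs, 21.8% were lower in this comparison. Against MEF, the resting B sums had log2 folds of -0.79 (SE 0.31; edgeR adjusted p = 0.0645) and -0.43 (SE 0.22; edgeR adjusted p = 0.117), and neither passed the threshold of 0.05, while 16.4% of the region pairs were lower. Pro-B cells over MEF gave 0.32 (SE 0.31; edgeR adjusted p = 0.599) and 0.24 (SE 0.22; edgeR adjusted p = 0.577). Neither passed, against 9.09% of region pairs that differed in either direction.

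**Figure D1:**
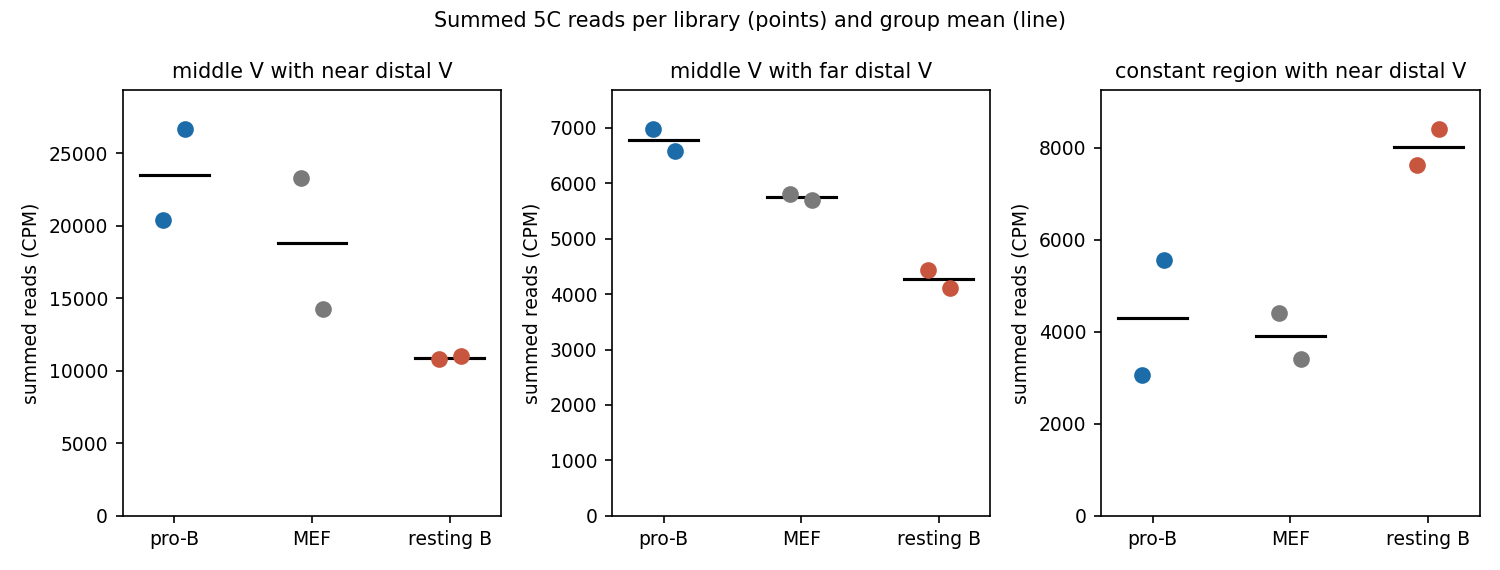
Summed reads in CPM (vertical axes, from 0) of middle V with near distal V, middle V with far distal V and, for comparison, the constant region with near distal V, by cell type. Each point is 1 library and each line the mean of 2; the resting B points are the lowest in the first 2 panels (10804 and 10994 CPM, 4435 and 4111 CPM) and the highest in the third (7616 and 8401 CPM).

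The fold of these sums depended on how libraries were scaled. With reads of the gene desert as library size, the near and far sums of resting B over pro-B were -0.91 and -0.39 on the log2 scale, and with total cis reads -0.87 and -0.39, none of them past the threshold in edgeR. When each pair was counted once, so that pairs with many reads weighed no more than others, the values were -0.68 (SE 0.27; limma adjusted p = 0.0401) and -0.79 (SE 0.25; limma adjusted p = 0.0183). When the reads of the pair's fragments with the gene desert were then subtracted on the log2 scale, they were 0.20 (SE 0.37; limma adjusted p = 0.708) and 0.03 (SE 0.38; limma adjusted p = 0.961), within their error of 0 and of the opposite sign. Reads with the unrelated desert can carry both how well a fragment's primers work and its number of copies. Which of these the subtraction removed was not tested.

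Ratios of member reads to those of another region pair need no scaling between libraries. Contacts of the constant region (chr12:114486613-114656272, mm9), which holds the exons that give an antibody its class, with near distal V were taken for comparison; this choice was made after the values were seen. Its 538 primer pairs spanned 1070 to 1949 kb (median 1403 kb), a separation like that of the far distal members but longer than that of the near distal ones. In resting B cells the middle V contacts were low relative to these. Reads of middle V with near distal V were 6.65 and 4.80 times those of the constant region with near distal V in the pro-B libraries, 5.29 and 4.19 times in the MEF libraries and 1.42 and 1.31 times in the resting B libraries. With far distal V, the ratios were 2.28 and 1.19 in the pro-B libraries, 1.32 and 1.68 in the MEF libraries and 0.582 and 0.489 in the resting B libraries. In each part the resting B libraries had the lowest ratios, and the pro-B and MEF libraries overlapped.

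The near distal ratio was 4.15-fold lower in resting B than in pro-B cells (log2 -2.05, 95% interval -2.87 to -1.24; limma adjusted p = 0.00752 over all ratios among the 55 region pairs). The far distal ratio was 3.08-fold lower (log2 -1.62, interval -2.59 to -0.65; limma adjusted p = 0.0211). Against MEF, the differences were -1.79 (limma adjusted p = 0.00768) and -1.48 (limma adjusted p = 0.0255). Such calls were common in the locus: 43.8% of all ratios differed between resting B and pro-B cells and 45.3% between resting B cells and MEF. Pro-B cells over MEF gave 0.26 (limma adjusted p = 0.677; interval -0.55 to 1.08) and 0.14 (limma adjusted p = 0.858; interval -0.83 to 1.12).

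The ratio to the constant region kept its direction and its call after the desert correction under which the sums lost theirs. After that correction the member values themselves showed no fall from pro-B to resting B cells, as given above. The corrected ratios over pro-B cells therefore describe higher constant region contacts in resting B cells, not lower member contacts. Resting B over pro-B was then -1.53 (limma adjusted p = 0.0188) with near and -1.70 (limma adjusted p = 0.0160) with far distal V, and resting B over MEF was -1.24 and -1.48 (limma adjusted p = 0.0314 and 0.0179). Without resting B replicate 2 the near value of -1.99 missed the threshold (limma adjusted p = 0.0546), and the far value missed it without either resting B library (-1.75 and -1.50; limma adjusted p = 0.0781 and 0.142). Against MEF, the near call was lost without MEF replicate 1 or either resting B library (limma adjusted p = 0.0630, 0.0536 and 0.0809), and the far call without any of the 4 libraries (0.0962 to 0.177). Without the correction too, part of each difference is the constant region's own change. Its near distal contacts were 3064 and 5549 CPM in the pro-B libraries, 4399 and 3405 in the MEF libraries and 7616 and 8401 in the resting B libraries, 1.86-fold higher in resting B than in pro-B cells (edgeR adjusted p = 0.0453).

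Ratios to contacts of the constant region and of the D-J region with far distal V gave the same direction, but these contacts themselves rose. Their summed reads in resting B over pro-B had log2 folds of 1.52 and 0.99 (edgeR adjusted p = 0.00350 and 0.0306). D-J contacts with near distal V did not rise (log2 fold -0.31; edgeR adjusted p = 0.392). Relative to the constant region with far distal V, resting B over pro-B was -2.63 for near and -2.20 for far members (limma adjusted p = 0.00707 for each). Relative to the D-J region (chr12:114656273-114691293) with far distal V it was -2.11 and -1.68 (limma adjusted p = 0.0117 and 0.0116). Relative to the D-J region with near distal V it was -0.84 and -0.41, and neither passed (limma adjusted p = 0.0842 and 0.451). Against the 8 region pairs among V genes other than these, no ratio passed in any comparison. For resting B over pro-B the near differences from them ran from -0.43 to 0.57 (limma adjusted p 0.310 to 0.646) and the far differences from 0.00 to 1.00 (limma adjusted p 0.0733 to 0.999). The low values in resting B cells were therefore not shown to be particular to middle V with distal V among V-to-V contacts.

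Near and far distal V were also compared with each other. The log2 ratio of far to near reads differed by -0.12 between pro-B cells and MEF, 0.31 between resting B cells and MEF, and 0.43 between resting B and pro-B cells (SE 0.38 each; limma adjusted p = 0.872, 0.536 and 0.386). The interval of the last was -0.47 to 1.32. With each pair counted once the last 2 turned sign, to -0.19 and -0.14. A difference between near and far distal V in their response was thus not detectable at this number of libraries.

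Single-pair folds of resting B over pro-B were grouped by the distance between midpoints. Far distal members had a median log2 fold of -0.95 at 750 to 1000 kb, -0.81 at 1000 to 1250 kb, -1.14 at 1250 to 1500 kb, -1.55 at 1500 to 1750 kb and -1.31 beyond 1750 kb. Constant region pairs with near distal V had 0.82, 0.73, 1.57 and 1.80 in the last 4 of these ranges, and the remaining Igh pairs 0.25, 0.22, 0.61 and 0.65. At equal separation beyond 1000 kb, then, the far members lay below 0 and those 2 sets above 0. Near distal members ran from -0.72 to -1.09 over their 5 ranges. These medians are descriptions, since pairs in a range share fragments and libraries.

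**Figure D2:**
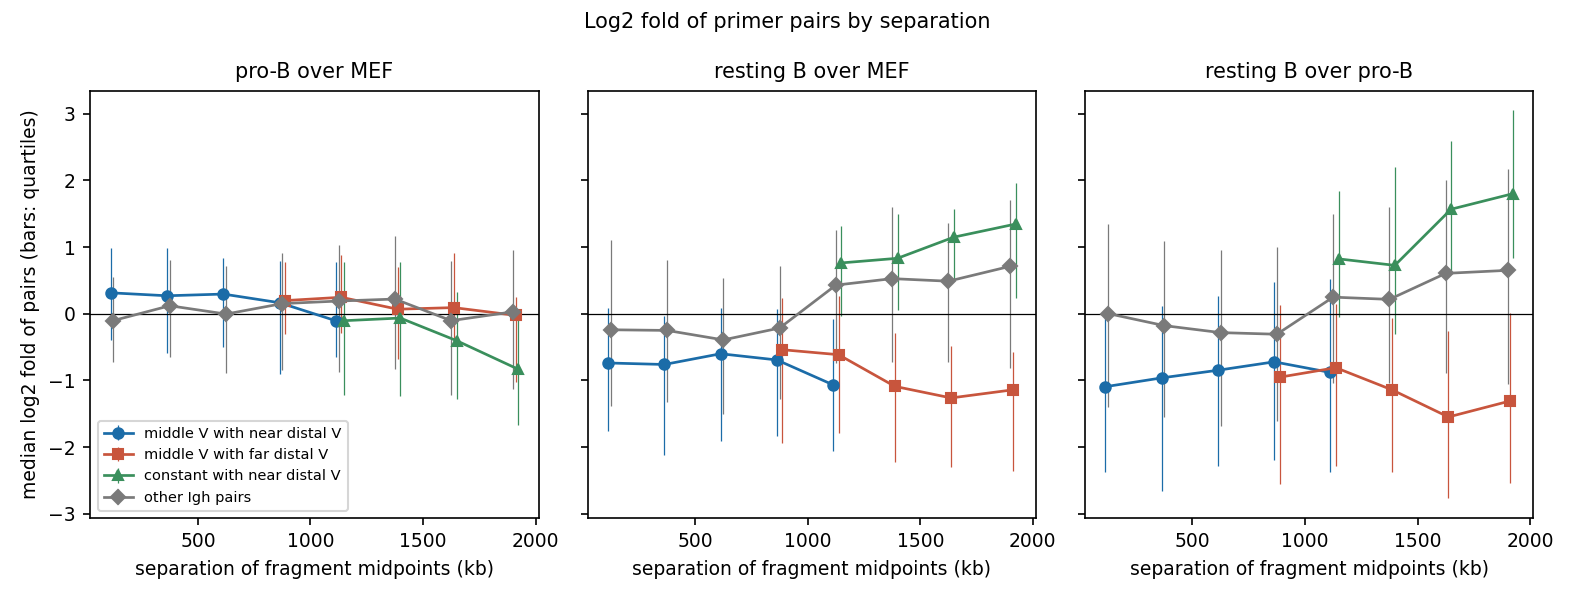
Median log2 fold of tested primer pairs (vertical axis; bars span the quartiles) against the separation of fragment midpoints in kb, for middle V with near and with far distal V, the constant region with near distal V and the other Igh pairs, in each comparison. In resting B over pro-B the far distal members fall to -1.55 at 1500 to 1750 kb, where the constant region pairs stand at 1.57; in pro-B over MEF the far distal medians lie between -0.02 and 0.25.

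Within a library, far distal pairs stood above the library's own trend of reads over distance in pro-B cells and MEF and below it in resting B cells. The median log2 ratio of observed to trend reads of far distal pairs was 0.82 and 1.57 in the pro-B libraries, 0.52 and 0.60 in the MEF libraries and -0.46 and -0.38 in the resting B libraries. The resting B libraries did not overlap with the others. For near distal pairs the medians were -0.03 and 0.80 in the pro-B libraries, 0.01 and -0.10 in the MEF libraries and -0.31 and -0.38 in the resting B libraries. Only pro-B replicate 2 stood well above its trend, and it was also the library with the most member pairs at 0.

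Among single primer pairs, no difference between pro-B cells and MEF was called with all 6 libraries. With edgeR's adjusted p, 0 of the 1662 member pairs differed, as did 0% of the 11940 tested Igh pairs. At an unadjusted p under 0.05, 70 near and 25 far distal pairs differed (6.90% and 3.86%, against 9.16% of Igh pairs), and the newer quasi-likelihood method of edgeR also called 0. Leaving out a pro-B library changed this. Without pro-B replicate 1, edgeR called 91 near pairs higher and 200 lower in pro-B cells and 44 far pairs higher and 125 lower, where it called 1126 Igh pairs higher and 2674 lower. Fewer pairs were called without pro-B replicate 2, in the members and among all Igh pairs. DESeq2 called 9 near pairs higher and 4 lower, and 2 far pairs higher and 2 lower, where it called 1.34% of Igh pairs higher and 1.13% lower. The pro-B libraries were both above the MEF libraries in 268 near pairs (26.4%) and 136 far pairs (21.0%), against 19.3% of Igh pairs. They were both below in 179 (17.7%) and 107 (16.5%), against 22.8%. The median log2 fold was 0.26 for near and 0.12 for far members and 0.03 for all Igh pairs.

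Resting B cells against MEF gave a shift over many pairs with few single calls. The median log2 fold was -0.68 for near and -0.99 for far members, against -0.02 for all Igh pairs. Both resting B libraries were below both MEF libraries in 555 near pairs (54.7%) and 388 far pairs (59.9%), against 35.9% of Igh pairs. edgeR called 3 near pairs lower and none higher, and 0 far pairs in either direction, against 0.385% of Igh pairs lower and 0.369% higher. Without either pro-B library it called more pairs, in the members and among all Igh pairs. Calls were lost in both when a MEF library or a resting B library was left out. The replicate block left 0 member pairs, against 1 Igh pair higher and 6 lower. At an unadjusted p under 0.05, 222 near and 113 far pairs differed (21.9% and 17.4%, against 20.9% of Igh pairs). Of these, 215 near and 112 far pairs were lower, against 1458 of the 2501 Igh pairs. DESeq2 called 151 near and 55 far pairs lower and 2 and 1 higher, against 7.39% of Igh pairs lower and 6.25% higher.

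The 3 pairs lower in resting B cells than in MEF were FOR 233 with REV 450, FOR 233 with REV 428 and FOR 377 with REV 374, so FOR 233 entered more than 1 of them. FOR 377 (chr12:115723372-115724782) and REV 374 (chr12:115706727-115709849) face each other across the border of the middle and distal V genes, 15.8 kb apart. Their pair had 2537 and 1609 reads in the pro-B libraries, 3535 and 4629 in the MEF libraries and 447 and 363 in the resting B libraries. Resting B libraries were the lowest, with a log2 fold of -3.40 (SE 0.49) over MEF (edgeR adjusted p = 0.0440).

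Resting B cells against pro-B cells gave the largest number of edgeR calls among the 3 comparisons. It called 112 near pairs lower (11.0% of those tested) and 4 higher, and 35 far pairs lower (5.40%) and 1 higher, against 5.16% of Igh pairs lower and 2.74% higher. The far distal share of lower calls was thus near that of the locus. Both resting B libraries were below both pro-B libraries in 467 near pairs (46.1%) and 290 far pairs (44.8%), against 29.0% of Igh pairs. The median log2 fold was -0.89 for near and -1.11 for far members and 0.01 for all Igh pairs. DESeq2 called 253 near and 133 far pairs lower and 16 and 5 higher, against 13.4% of Igh pairs lower and 10.9% higher.

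The number of calls depended on the libraries in the fit. Without either MEF library or either resting B library the calls were lost, in the members and among all Igh pairs. Without either pro-B library their number rose in the members and among all Igh pairs. The replicate block left 32 near pairs and 1 far pair, all lower, against 67 Igh pairs higher and 204 lower. Scaling moved all pairs together: with gene desert reads as library size the median of all Igh pairs was 0.29 and edgeR called 456 of them higher and 349 lower, against 327 and 616 with TMM. The members' medians relative to that of all Igh pairs moved little, from -0.90 to -0.92 for near and from -1.12 to -1.18 for far members over the 4 scalings. This follows from the common shift of all pairs and is no test of the members' fall.

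The order of the cell types was counted over all 6 libraries. Both resting B libraries were the lowest of the 6 in 388 near pairs (38.3%) and 249 far pairs (38.4%), against 23.0% of Igh pairs. Both pro-B libraries were the highest in 237 near (23.4%) and 124 far pairs (19.1%), against 12.9%. The log2 folds of the pairs called lower in resting B than in pro-B cells ran from -1.74 to -8.34 with near and from -2.19 to -9.22 with far distal V.

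Several of these pairs shared FOR 233, a middle V fragment at chr12:115211655-115215965, which had 15 pairs called lower. FOR 233 with REV 428 (chr12:115848051-115855284; 638 kb) had 594 and 672 reads in the pro-B libraries, 92 and 192 in the MEF libraries and 7 and 5 in the resting B libraries. The 3 cell types did not overlap, and resting B over pro-B was -6.86 (SE 0.68; edgeR adjusted p = 0.0189). FOR 233 with REV 450 (chr12:115938466-115941645; 726 kb) had 358 and 613, 118 and 217, and 5 and 2 reads in the same order. Pro-B cells were 154-fold above resting B cells on the summed reads (95% interval 74.3 to 383, which covers counting error only). FOR 233 with REV 610, in far distal V at chr12:116556523-116559255 and 1344 kb away, had 991 and 1475, 256 and 415, and 60 and 48 reads. Its log2 fold was -4.65 (SE 0.47; edgeR adjusted p = 0.0189), again with no overlap between cell types.

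Other named near distal pairs fell in resting B relative to pro-B cells at separations from 171 to 940 kb. FOR 399 with REV 335 (171 kb) had 1148 and 1661 reads in the pro-B libraries, 342 and 784 in the MEF libraries and 113 and 66 in the resting B libraries (log2 fold -4.12; edgeR adjusted p = 0.0195). FOR 556 with REV 370 (685 kb) had 768 and 482, 275 and 346, and 40 and 31 reads (-4.36; edgeR adjusted p = 0.0214). In both the resting B libraries were lowest and the pro-B libraries highest. FOR 324 with REV 545 (777 kb) had 1983 and 3638, 1178 and 2099, and 503 and 417 reads (-2.73; edgeR adjusted p = 0.0214). Raw counts of a pro-B and a MEF library were nearly equal here. In CPM the pro-B libraries (113 and 155) were above the MEF libraries (68.9 and 76.6). FOR 501 with REV 235 (940 kb) had 1074 and 1404, 397 and 788, and 206 and 204 reads (-2.74; edgeR adjusted p = 0.0225). FOR 334 with REV 450 (340 kb) had 410 and 617, 190 and 282, and 31 and 26 reads (-4.30; edgeR adjusted p = 0.0213).

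The named far distal pairs that fell joined fragments 938 to 1528 kb apart. FOR 364 with REV 628 (938 kb) had 171 and 288 reads in the pro-B libraries, 38 and 102 in the MEF libraries and 6 and 4 in the resting B libraries (log2 fold -5.62; edgeR adjusted p = 0.0272). FOR 324 with REV 768 (1528 kb) had 508 and 398, 149 and 219, and 30 and 41 reads (-3.86; edgeR adjusted p = 0.0276). The cell types did not overlap in either pair. FOR 769 with REV 335 (1499 kb) was near 0 in resting B cells, with 1 read in each library against 149 and 79 in the pro-B libraries and 34 and 44 in the MEF libraries. Pro-B cells were 126-fold above resting B cells (95% counting interval 34.5 to 1048). FOR 671 with REV 345 (1144 kb; 503 and 421, 242 and 465, 62 and 29 reads) and FOR 609 with REV 260 (1226 kb; 192 and 333, 151 and 197, 22 and 12 reads) had log2 folds of -3.56 and -4.07 (edgeR adjusted p = 0.0296 and 0.0307). Raw counts of the pro-B and MEF libraries overlapped in those 2 pairs. In CPM both pro-B libraries were above both MEF libraries. The log2 folds over MEF were 0.58 and 0.65, and neither passed (edgeR adjusted p = 0.746 and 0.753).

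Few member pairs rose in resting B relative to pro-B cells. FOR 346 with REV 571 (806 kb) had 140 and 175 reads in the pro-B libraries, 281 and 320 in the MEF libraries and 956 and 840 in the resting B libraries (log2 fold 2.36; edgeR adjusted p = 0.0345). REV 435 (chr12:115877939-115880010) took part in the pairs with FOR 272 (195 and 368, 714 and 624, 1794 and 1054 reads; 2.21, edgeR adjusted p = 0.0460) and with FOR 369 (310 and 466, 634 and 921, 1470 and 1224 reads; 1.66, edgeR adjusted p = 0.0470). In these 3 pairs MEF lay between the other cell types. FOR 526 with REV 280 was sparse in pro-B cells, with 4 and 1 reads against 25 and 84 in the MEF libraries and 130 and 114 in the resting B libraries (44.1-fold, counting interval 18.6 to 137). FOR 685 with REV 231, the only far distal pair that rose, had 0 reads in each pro-B library, 48 and 54 in the MEF libraries and 71 and 21 in the resting B libraries. Resting B cells were at least 13.2-fold higher, with a floor of 3 counts per library, and MEF at least 16.0-fold higher. The MEF and resting B libraries overlapped in this pair.

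**Figure D3:**
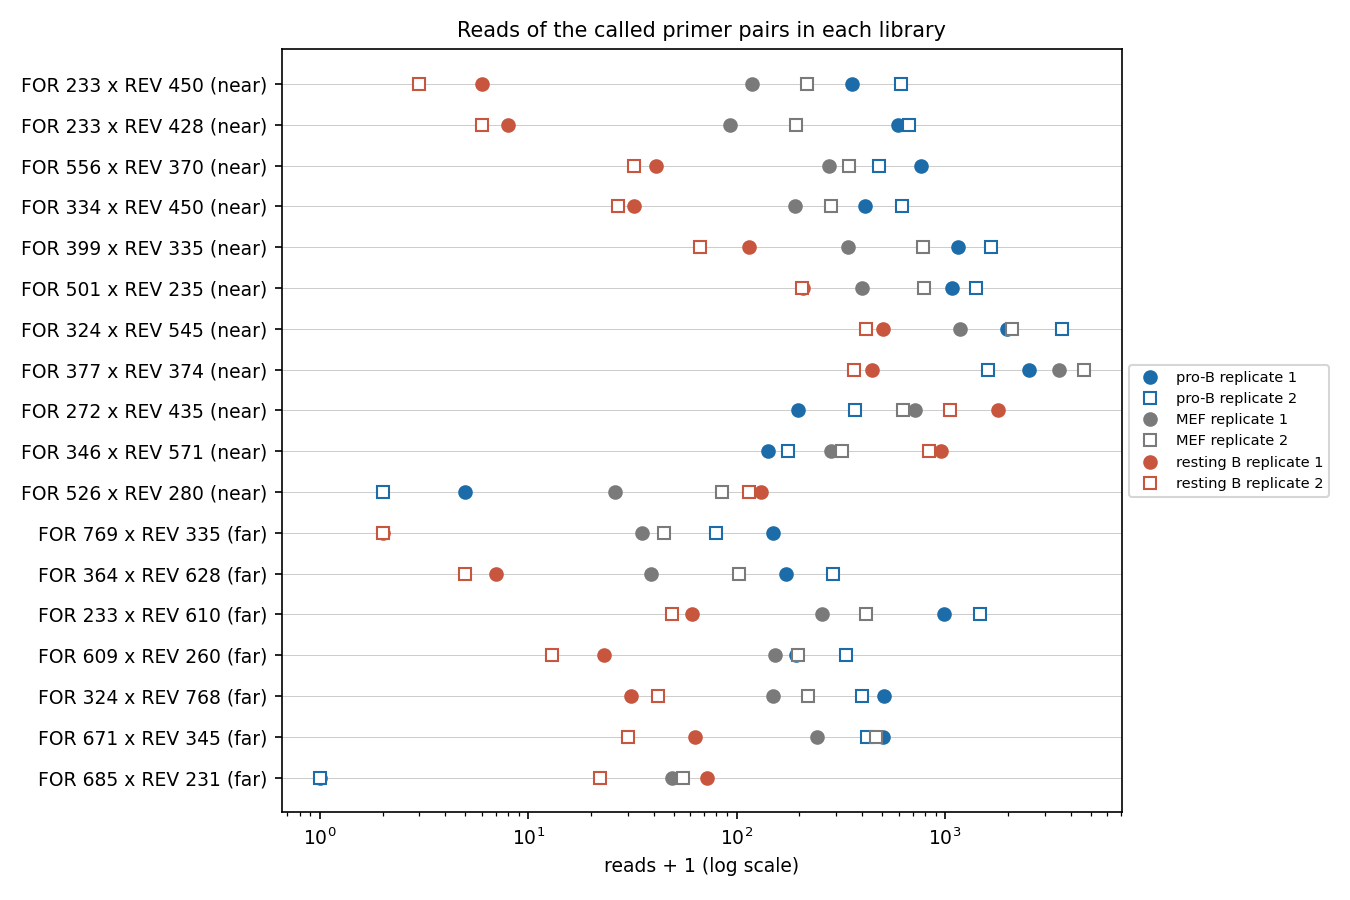
Reads plus 1 on a log axis for 18 member pairs that edgeR called and the naming rule took, with 1 point per library, coloured by cell type; filled circles are replicate 1 and open squares replicate 2. In the 14 pairs that fell the resting B points lie to the left of the pro-B points, from 1 read in each library for FOR 769 with REV 335 to 503 and 417 reads for FOR 324 with REV 545.

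Reads were next summed per fragment: each middle V fragment over near and over far distal V, and each distal V fragment over middle V, 173 sums in all. Resting B cells were lower than pro-B cells in 79 of these sums and higher in 2, against 17.8% lower and 18.2% higher among the 2240 fragment sums of the locus. Of the middle V fragments, 25 of 51 were lower with near and 21 of 51 with far distal V, and 15 were lower with both. Of the distal V fragments, 18 of 43 near and 15 of 28 far ones were lower with middle V. Against MEF, resting B cells were lower in 54 sums and higher in none, where 12.6% of all sums were lower. These counts also changed with scaling and with single libraries left out. The 54 sums were 4 with gene desert reads and 19 with total cis reads as library size, 0 without MEF replicate 1 or either resting B library, 11 without MEF replicate 2, and 95 and 98 without pro-B replicates 1 and 2. The 81 sums called between resting B and pro-B cells were 18 and 41 with those scalings, 48 without MEF replicate 2, and 9 and 0 without resting B replicates 1 and 2. Between pro-B cells and MEF, edgeR called 0 of the 173 sums, against 1.43% of all sums in either direction, while DESeq2 called 14 and edgeR called 25 and 30 without pro-B replicates 1 and 2.

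Near distal fragments with large falls included REV 428, REV 450 and REV 528. REV 428 with middle V had 616 and 249 CPM in the pro-B libraries, 113 and 122 in the MEF libraries and 28.9 and 28.3 in the resting B libraries, a 15.1-fold fall against pro-B cells (edgeR adjusted p = 0.00321). REV 450 with middle V had 211 and 159, 141 and 116, and 25.9 and 21.5 CPM (7.80-fold lower; edgeR adjusted p = 0.00275). It was also 5.40-fold lower than in MEF (edgeR adjusted p = 0.00429). REV 528 (chr12:116286772-116293346) with middle V had 86.0 and 80.0, 41.5 and 53.1, and 11.6 and 7.73 CPM, and was 8.60-fold lower than in pro-B and 4.90-fold lower than in MEF (edgeR adjusted p = 0.00321 and 0.00555). In all 3 fragments the cell types ranked pro-B, MEF, resting B without overlap.

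Far distal fragments showed the same order. REV 628 (chr12:116622296-116627666) with middle V had 161 and 176 CPM in the pro-B libraries, 83.6 and 71.7 in the MEF libraries and 28.4 and 22.9 in the resting B libraries, 6.56-fold lower than in pro-B cells (edgeR adjusted p = 0.00275). FOR 694 (chr12:116846437-116851009) had 147 and 95.7, 60.7 and 74.5, and 19.5 and 16.8 CPM, and FOR 702 (chr12:116864979-116868374) had 49.5 and 53.5, 32.3 and 43.7, and 8.01 and 7.13 CPM. They were 6.68-fold and 6.80-fold lower than in pro-B cells (edgeR adjusted p = 0.00321 and 0.00353). Against MEF the 3 fragments were 3.03-fold, 3.73-fold and 5.03-fold lower (edgeR adjusted p = 0.00706, 0.00739 and 0.00555).

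On the middle V side, the fragments REV 345, FOR 241 and REV 271 were named by the same rule. REV 345 (chr12:115623606-115628290) with near distal V had 131 and 131 CPM in the pro-B libraries, 64.6 and 68.6 in the MEF libraries and 21.5 and 16.7 in the resting B libraries, 6.85-fold lower than in pro-B and 3.49-fold lower than in MEF (edgeR adjusted p = 0.00275 and 0.00568). FOR 241 (chr12:115242106-115243663) with far distal V had 162 and 120, 85.3 and 98.1, and 29.0 and 26.9 CPM, 5.03-fold and 3.28-fold lower (edgeR adjusted p = 0.00320 and 0.00658). REV 271 (chr12:115359372-115362251) with near distal V was 3.18-fold lower than in MEF (119 and 111, 84.2 and 89.0, 30.1 and 24.3 CPM; edgeR adjusted p = 0.00619). The sums that rose in resting B relative to pro-B cells were FOR 404 with middle V (104 and 129, 183 and 168, 235 and 229 CPM; 1.99-fold) and FOR 216 with near distal V (9.25 and 5.86, 15.6 and 11.3, 17.6 and 21.9 CPM; 2.62-fold), with edgeR adjusted p of 0.0248 and 0.0461.

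Reads with the gene desert moved with these calls. For each fragment the resting B to pro-B ratio of its reads with the desert was set relative to the median Igh fragment. This ratio was below 0 on the log2 scale in 21 of the 25 middle V fragments lower with near distal V, 16 of the 21 lower with far distal V, 16 of the 18 near distal and 13 of the 15 far distal fragments lower with middle V. Its medians were -0.70, -0.56, -1.16 and -0.77 in these fragments, against 0.12, 0.00, 0.02 and -0.02 in the fragments that were not lower. REV 450 had -2.13, REV 528 -2.02, REV 428 -2.37 and REV 628 -2.07, while the risen FOR 404 and FOR 216 had 0.72 and 1.77. Across fragments the fold with its partners and the desert ratio correlated with Pearson's r of 0.79 for near and 0.76 for far distal fragments, and 0.35 and 0.13 for middle V fragments with near and far distal V (43, 28, 51 and 51 fragments of the same 4 libraries).

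The desert ratio of the summed fragment alone, without those of its partners, was then subtracted. The median fold was still below 0 in each set: -0.68 and -0.65 for middle V fragments with near and far distal V, -0.68 for near distal and -0.60 for far distal fragments. It was below 0 in 43 of 51, 38 of 51, 35 of 43 and 24 of 28 fragments. With desert reads of both fragments subtracted from each pair, as given above, resting B over pro-B showed no fall in either part. Desert reads per member fragment were few in pro-B replicate 1, with a median of 102 against 842 in pro-B replicate 2 and 188.5 to 530 in the other libraries. The part of the desert reads in the falls of single fragments was not tested further.

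**Figure D4:**
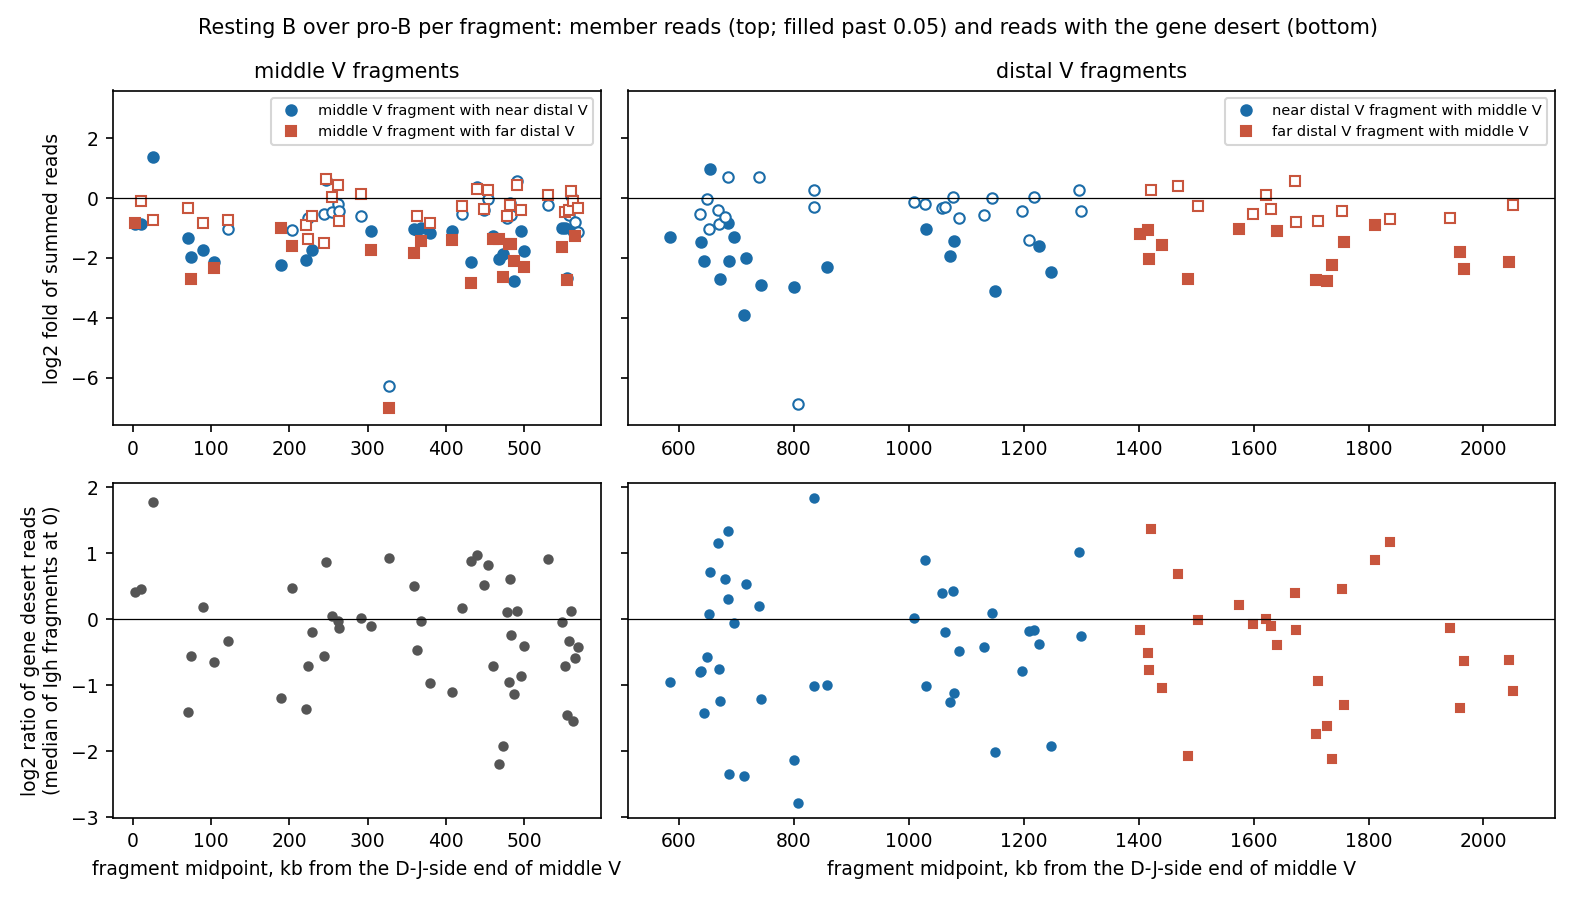
Log2 fold of resting B over pro-B cells per fragment (top; filled where edgeR's adjusted p was under 0.05) and log2 ratio of the same fragment's reads with the gene desert, relative to the median Igh fragment (bottom), against the fragment's distance in kb from the D-J side of middle V. Most filled points lie below 0 in the top panels, and the near and far distal fragments that are low there tend to be low in the bottom panel too (r of 0.79 and 0.76).

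Along the locus, median folds of resting B cells were below 0 in all blocks of middle and distal V, to unequal degrees. Middle V, near distal V and far distal V were each split into 3 stretches of equal length, numbered from the D-J side. The median log2 fold of resting B over pro-B ran from -0.13 (middle 2 with near 2, chr12:115341931-115521010 with chr12:115972764-116198883; 53 tested pairs) to -1.79 (middle 1 with far 3, chr12:115139357-115330485 with chr12:116972605-117190694; 26 tested pairs). In middle 2 with near 2, 52.8% of pairs were below 0. Block medians were taken with TMM scaling only. Gene desert scaling moved the median of all Igh pairs from 0.01 to 0.29, so the sign of blocks nearest 0 is not settled. The 3 blocks of far 3, at the end away from the D-J segments, had -1.79, -1.37 and -1.53 against pro-B cells and -1.69, -1.33 and -1.39 against MEF. In far 1 the values were -1.13, -0.89 and -0.68 against pro-B cells and -0.81, -0.70 and -0.36 against MEF. Pro-B over MEF lay between -0.49 and 0.54, with near 2 below 0 in 2 of its 3 blocks. By the ratio of summed CPM, far 3 had -1.50, -0.99 and -0.73 over pro-B cells. The largest fall by that ratio was -1.74, in middle 1 with near 3. No test was made between blocks.

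**Figure D5:**
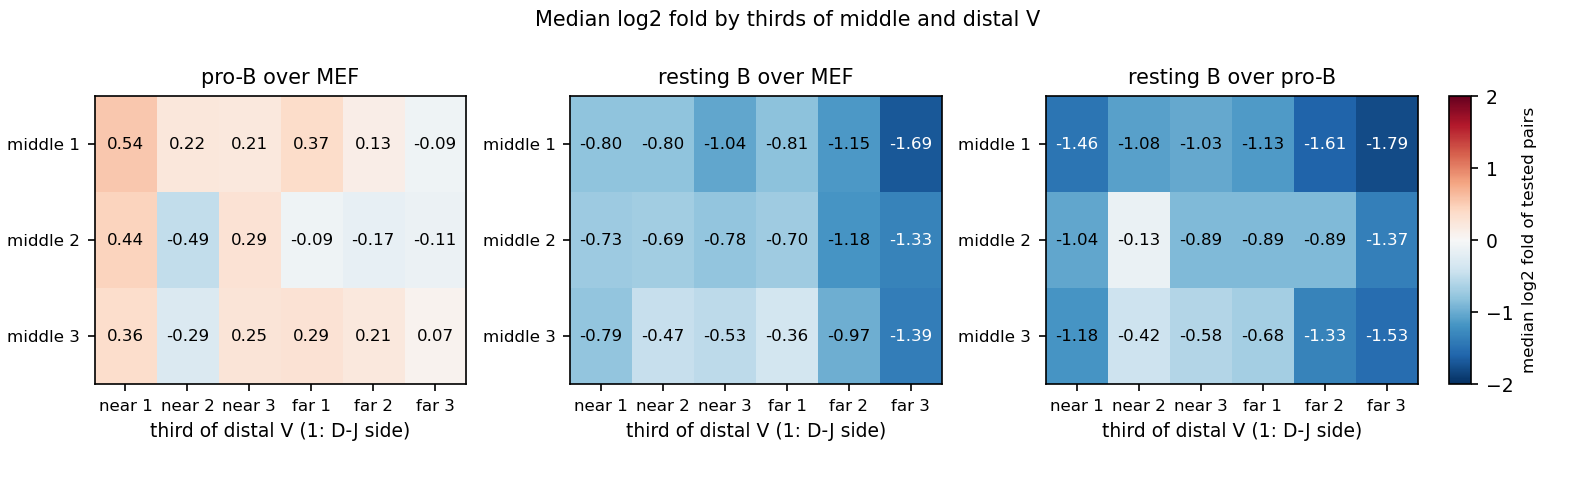
Median log2 fold of tested primer pairs in 18 blocks, the 3 stretches of middle V (vertical) by the 3 stretches each of near and far distal V (horizontal, from the D-J side), in each comparison; blue is lower and red higher. All 18 blocks are below 0 in resting B over MEF and over pro-B with TMM scaling. The far 3 column of medians is the darkest (-1.79, -1.37 and -1.53 over pro-B).

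The near distal reads were concentrated in few pairs. FOR 233 with REV 545 (chr12:116342486-116353413), 1134 kb apart, held 8.65% to 33.0% of all near distal member reads of a library. It had 51546 and 136360 reads in the pro-B libraries, 131611 and 59343 in the MEF libraries and 22308 and 24976 in the resting B libraries. Resting B libraries were the lowest, but the fold of -2.06 against pro-B cells did not pass (SE 0.68; edgeR adjusted p = 0.0993), and replicates differed by over 2-fold in pro-B cells and MEF. All pairs of REV 545 together made up 23.2% to 45.0% of near distal reads, and this fragment also ranked between 2 and 4 of the 225 Igh fragments in reads with the gene desert. Without its pairs the near distal sum was -0.99 in resting B over pro-B (edgeR adjusted p = 0.0121), and without FOR 233 with REV 545 alone it was -0.96 (edgeR adjusted p = 0.0211).

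In far distal V, FOR 671 (chr12:116768031-116772149) held 17.1% to 29.8% of member reads. Its pair with REV 374 had 5346 and 1786 reads in the pro-B libraries, 3146 and 4411 in the MEF libraries and 3300 and 2741 in the resting B libraries, and its pair with REV 339 had 4493 and 3383, 1754 and 2612, and 3207 and 2824. The log2 folds of resting B over pro-B were -0.52 and -0.59, and neither passed (edgeR adjusted p = 0.597 and 0.351). In both pairs the resting B libraries lay within the range of the other 4.

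A single pair stood out in a single library. FOR 451 with REV 300 (480 kb) had 44460 reads in pro-B replicate 2 but 74 in pro-B replicate 1, 199 and 59 in the MEF libraries and 56 and 291 in the resting B libraries. FOR 451 gave 71.8% to 97.3% of its Igh reads with REV 300 in every library and 1 to 20 reads with the gene desert, among the lowest of all fragments. Its fold of resting B over pro-B was -6.90 (SE 2.45; edgeR adjusted p = 0.117) and turned to 0.89 without pro-B replicate 2. Without this pair the near distal sum of resting B over pro-B was -1.05 (edgeR adjusted p = 0.0302).

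Pairs above both the distance trend and the strength of their primers were sought in each library, as the series description counts an interaction where both replicates show it. Both libraries had a standardised residual of 2 or more for 4 near and 0 far pairs in the pro-B libraries, 5 near and 1 far pair in the MEF libraries and 4 near and 2 far pairs in the resting B libraries. Among all Igh pairs over 50 kb the shares were 0.465%, 0.449% and 0.773%. In total 10 member pairs passed in some cell type, 2 of them in all 3. These 2 were FOR 451 with REV 300 and FOR 204 with REV 413, the second with 4585 and 14420 reads in the pro-B libraries, 26707 and 4072 in the MEF libraries and 1341 and 1264 in the resting B libraries. FOR 233 with REV 545 passed in pro-B cells (12.7 and 11.5) and MEF (14.9 and 16.3) but had 4.53 and 1.72 in resting B cells.

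Far distal pairs with such residuals were few: 0%, 0.140% and 0.280% of the 714 in pro-B cells, MEF and resting B cells, each below the Igh share. Without primer effects 0 far pairs passed in each cell type. No difference between cell types was tested. FOR 712 with REV 249 (1632 kb) passed in MEF (3.78 and 3.13), with 105 and 661 reads in the pro-B libraries, 757 and 645 in the MEF libraries and 177 and 184 in the resting B libraries. FOR 369 with REV 668 (1063 kb) passed in resting B cells (3.48 and 3.57), with 133 and 645, 394 and 332, and 1081 and 1047 reads. FOR 661 with REV 370 (1038 kb) passed there too (2.61 and 2.88), with 112 and 229, 163 and 135, and 611 and 653 reads. In the last 2 pairs resting B cells were the highest of the cell types, with log2 folds over pro-B of 1.42 and 1.79 that did not pass edgeR's test (adjusted p = 0.207 and 0.0921).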

How the data were processed

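The authors deposited raw counts: the number of valid reads for each forward-reverse primer combination (reads of 42 bases, per the file headers). A combination missing from a file counted as 0. Novoalign and mm9 are named by the submitters' processing notes, without versions. Per the file headers nothing was corrected for distance or primer efficiency, and duplicates stayed in, so intervals and floors cover counting error only. Libraries were grouped by title.

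Cis pairs reaching 10 reads in 2 or more libraries were fitted with edgeR 4.0.16 (R 4.3.3; TMM, quasi-likelihood, cell type as the only term, 6 libraries), with Benjamini-Hochberg adjustment over 11940 Igh pairs, 55 region sums or 2240 fragment sums. Ratios of region sums (pseudocount 0.5) were fitted with limma 3.58.1. DESeq2 1.42.0, scaling, filters, distance, single libraries and a replicate block were alternatives. The distance trend was a lowess curve (span 0.3); residuals came from a quasi-Poisson model with a 4-degree spline of separation and primer effects. The edgeR step was tested on simulated data.

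Named per comparison, part and direction were up to 6 pairs and up to 4 fragment sums past 0.05 in order of p (pairs without overlap, no fragment repeated), the 5 pairs with most CPM per part and up to 3 residual pairs per cell type and part. Members and lists were chosen with earlier results of these data known.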

Additional observations from a re-analysis of the deposited data

How the results depend on the processing

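The numbers of calls moved most, in the members and among all Igh pairs. Pro-B over MEF pairs rose from 0 to 13 near and 4 far with DESeq2, and without single libraries ran from 0 to 291 and from 0 to 169. Resting B over MEF near pairs, 3 in the report, were 153 with DESeq2, 8 with at least 50 reads, 8 with a distance offset, 39 with the newer edgeR method, 5 with no filter, 248 with only the 4 libraries compared and 0 with the replicate block (0 to 258 without single libraries). The far pairs, 0 in the report, were 56, 1, unchanged, 8, 1, 148 and unchanged under those settings (0 to 153). Resting B over pro-B near pairs, 116, were 269 with DESeq2, 65 with gene desert scaling, 239 with the newer edgeR method, 0 with 4 libraries, 32 with the replicate block and 72 with total reads (0 to 516); the far pairs, 36, were 138, 15, 116, 0, 1 and 21, and 58 with the distance offset (0 to 294). Fragment sums were 14 with DESeq2, 1 with the distance offset and 2 with either desert or total scaling for pro-B over MEF (0 to 30); 20, 4, 98 and 19 with distance offset, desert scaling, 4 libraries and total reads for resting B over MEF (54 in the report; 0 to 98); and 18, 48 and 41 with desert scaling, 4 libraries and total reads for resting B over pro-B (81; 0 to 105).

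For summed reads, pro-B over MEF reversed with each pair counted once (-0.18 near, -0.22 far) and with desert reads also subtracted (-0.46 and -0.54); without single libraries it ran from -0.040 to 0.72 and from 0.16 to 0.28. Resting B over MEF passed for near with each pair once (-0.87) and 4 libraries (-0.81), and for far with DESeq2 (-0.36), each pair once (-1.01) and 4 libraries (-0.46), while desert scaling gave 0.031 for far (-1.10 to -0.40 and -0.48 to -0.37 without single libraries). Resting B over pro-B lost its call for near with the distance offset (-1.31), desert scaling (-0.91), 4 libraries (-1.06) and total reads (-0.87), and for far with these (-1.16, -0.39, -0.60 and -0.39) and the replicate block (-0.67); both turned with desert reads subtracted (0.20 and 0.028). Without single libraries they ran from -1.30 to -0.91 and from -0.72 to -0.60, and the calls were also lost without MEF replicate 2 or either resting B library for near and without either MEF or either resting B library for far (edgeR adjusted p up to 0.153 and 0.323). Far against near ran from -0.46 to 0.22, from -0.029 to 0.65 and from 0.19 to 0.67 in the order of comparisons used in the report, and reversed with each pair once (-0.19 in resting B over MEF, -0.14 over pro-B) and with desert reads subtracted (-0.25 and -0.17). Against the constant region the ranges were 0.03 to 0.50, -1.96 to -1.62 and -2.29 to -1.82 for near, and -0.33 to 0.61, -1.65 to -1.31 and -2.09 to -1.15 for far. Residual pairs in MEF, 6, were 3 without primer effects; those in resting B cells, 6, were 2 without primer effects and 3 at a threshold of 3. Among 21 named pairs and 18 named fragment sums, FOR 451 with REV 300 in resting B over pro-B ran from -8.64 to 0.89 without single libraries, turning without pro-B replicate 2, and no other turned. Calls of these were lost more often: 18 of the 21 pairs without either MEF or either resting B library, 16 with 4 libraries, 11 with the replicate block and 6 with desert scaling, and all 18 fragment sums without resting B replicate 2, 11 without resting B replicate 1, 10 and 5 without MEF replicates 1 and 2, 11 with desert scaling and 5 with total reads. The causes were not tested.

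Same-numbered libraries did not deviate together (correlations of -0.02, -0.0067 and 0.06) and their titles give only a replicate number, so nothing was paired. Whether they shared a batch is not given by the titles. The newer edgeR method, the subtraction of desert reads, the settings without FOR 451 with REV 300 or without REV 545, and the comparison with the constant region were added after seeing the data. Pairs with few reads limit what single-pair tests can show, and 2 libraries per cell type limit all of them.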
